A study of Mus musculus with 6 samples.

Results

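Clca3a1 and Clca3a2 are neighboring mouse genes of the CLCA family (calcium-activated chloride channel regulators). They were 2 of the 36799 genes or unnamed transcripts on the array, and each had 1 of the 55681 gene probes, found by matching the probe's accession (NM_009899 for Clca3a1, NM_030601 for Clca3a2) to the RefSeq symbol. Both were chosen because their ratio of RANK-/- over RANK+/+ ranked high in these same arrays. Their ratios and genotype levels are therefore given as a description, with no test.

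RNA was measured in CD45- cells, the fraction without the leukocyte surface protein CD45, sorted from MMTV-PyMT tumors that had been transplanted orthotopically, that is, into the mammary gland of a host. In that model the polyomavirus middle T oncogene is expressed from a mammary promoter. All donor tumors carried the transgene, and they were either RANK+/+ or RANK-/-, a constitutive loss of the TNF receptor family member RANK (gene symbol Tnfrsf11a). All hosts were syngeneic C57BL/6 mice with intact RANK, so host cells that remained in the sorted fraction were not RANK-deficient; the labels used here give no age. Each of 6 two-color arrays received 1 RNA of each genotype, and the arrays formed 3 pairs of RNAs with 2 technical arrays each, named A and B. The RANK-/- RNA was in Cy5 (red) in pair 1 and in Cy3 (green) in pairs 2 and 3, on both arrays of a pair. No label tells if separate tumors gave rise to the 3 RNAs of each genotype, so the spread between pairs may be partly technical.

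Tnfrsf11a went against the labels. Its log2 ratio of RANK-/- over RANK+/+ was 2.03, 1.15 and 1.76 in the 3 pairs, with a mean of 1.65 ± 0.45 (SD, n = 3 pairs, adjusted p = 1.00 by limma), so the probe for RANK was brighter in the RNA labelled RANK-/-. Whether this probe lies inside the deleted stretch was not known here. Every direction below is that of the RNAs as labelled, and each sign would turn if the labels were exchanged.

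CLCA proteins are secreted or membrane-associated glycoproteins that cleave themselves with their own metalloprotease domain. They are known as modulators of calcium-activated chloride conductance rather than as channels, and some bind the β4 integrin. The proteins of Clca3a1 and Clca3a2 (mCLCA1 and mCLCA2 in older literature) are closely related, and both have been described in the mouse mammary gland, with Clca3a2 linked to involution, the regression of the gland after weaning. The Clca3a1 protein is also known as an adhesion ligand on lymphatic endothelium. Old symbols overlap within the family (Clca3a1 was once called Clca1, and Clca1 was once called Clca3), so every probe was assigned by accession.

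The 250 bases before each start site were compared because the levels of Clca3a1 and Clca3a2 ran together across the RNAs, and Clca3b, the next gene of the cluster, was included as a contrast. Sequences are from RefSeq, assembly GRCm38.p6, minus strand, written 5′ to 3′. The Clca3a1 window is chr3:144760978-144761227, with capitals marking 2 overlapping matches to TATATA. For Clca3a2, only 30 bases at chr3:144819534-144819563 (69 to 40 bases before the start) are shown. The 129 bases next to its start lie inside the RefSeq extent of the gene, and they include these 30 bases and every motif match given for Clca3a2. The Clca3b window is chr3:144849303-144849552. In the Clca3a2 and Clca3b sequences, capitals mark ATGCAAAT (the octamer motif) and a match to TGANTCA, a loosened AP-1 pattern that allows any middle base.
Clca3a1: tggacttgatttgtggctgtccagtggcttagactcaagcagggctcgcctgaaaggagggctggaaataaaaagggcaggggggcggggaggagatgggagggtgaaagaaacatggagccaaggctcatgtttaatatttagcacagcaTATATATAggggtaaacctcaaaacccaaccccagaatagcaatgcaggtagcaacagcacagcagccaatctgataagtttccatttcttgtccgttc
Clca3a2: tATGCAAATattctggccgTGATTCAaatt
Clca3b: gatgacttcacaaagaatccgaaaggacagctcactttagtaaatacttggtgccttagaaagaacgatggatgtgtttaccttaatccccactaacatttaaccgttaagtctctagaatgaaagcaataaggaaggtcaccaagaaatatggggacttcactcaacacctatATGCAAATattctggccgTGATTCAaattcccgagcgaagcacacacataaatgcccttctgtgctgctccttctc

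The Clca3a1 and Clca3a2 windows had little in common, with a longest identical run of 7 bases. Clca3a2 and Clca3b instead shared an identical run of 39 bases, which began 69 and 77 bases before their starts and occurred in 2 of 32851 promoters. Around it, 98 of 112 aligned positions were identical (87.5%). The octamer lay 68 bases before the Clca3a2 start and 76 before the Clca3b start, and it was present in 1.6% of all promoter windows, searched on both strands. The match to the loosened AP-1 pattern, with T as the middle base, lay 50 and 58 bases before these starts. The share of windows with that loosened pattern was 6.75%. An NF-kB motif match lay in the Clca3a2 window and in neither of the others (7.25% of windows), 105 bases before the start on the opposite strand. The TATATA matches of Clca3a1 began 99 and 97 bases before its start, overlapping each other (5.25% of windows), and it had 1 CCAAT (33.8%). No match to TTCNNNGAA (STAT), TTGCNNNAA (C/EBP) or TATAAA was found in any of these windows (7.02%, 8.29% and 12.4% of all windows). These are matches of letters in a window and not measured binding sites.

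Clca3a1 gave a bright spot in every RNA. In the channel labelled RANK-/-, arrays A and B read 6796.5 and 8079 intensity units for pair 1, 7829 and 7330 for pair 2, and 14204 and 14074 for pair 3. In the RANK+/+ channel they read 2067 and 2282 for pair 1, 7200 and 7237 for pair 2, and 986 and 1137 for pair 3. Raw signals of the 2 dyes are not on one scale, since the median spot had 87 to 105.5 units in Cy5 and 48 to 54 in Cy3. After normalization, the log2 level in RANK-/- was 12.75, 13.17 and 14.18 in pairs 1, 2 and 3, and in RANK+/+ it was 11.38, 12.53 and 9.53. The highest level was thus that of RANK-/- in pair 3, and the lowest was that of RANK+/+ in the same pair. In RNA of a sorted cell fraction, fewer cells of a type and less RNA per cell cannot be told apart.

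The log2 ratio of Clca3a1 was 1.36 in pair 1, 0.64 in pair 2 and 4.65 in pair 3, or 2.57-fold, 1.56-fold and 25.2-fold higher in RANK-/-. The mean was 2.22 ± 2.14 (SD, n = 3 pairs; SE 1.23). The difference lay in the same direction in all 3 pairs but was of very unequal size. Arrays A and B of a pair differed little, with technical SDs of the ratio of 0.0498, 0.0321 and 0.0394, so the spread was between pairs and not between technical arrays. With median centring in place of loess, the pair 2 ratio was 0.28 for Clca3a1 and 0.30 for Clca3a2.

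Clca3a2 followed the same order. For RANK-/-, arrays A and B read 9787.5 and 9875.5 intensity units for pair 1, 10436 and 10244 for pair 2, and 17298 and 17475 for pair 3. For RANK+/+, they read 2750.5 and 2510.5 for pair 1, 9288 and 10096 for pair 2, and 2107 and 2434 for pair 3. The normalized log2 level in RANK-/- was 13.15, 13.62 and 14.51 in pairs 1, 2 and 3, against 11.64, 12.92 and 10.59 in RANK+/+. As for Clca3a1, both the highest and the lowest level came from pair 3.

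The log2 ratio of Clca3a2 was 1.50, 0.70 and 3.92 in pairs 1, 2 and 3 (2.83-fold, 1.62-fold and 15.1-fold), with a mean of 2.04 ± 1.67 (SD, n = 3 pairs; SE 0.97) and technical SDs of 0.031, 0.0059 and 0.0145. Clca3a1 minus Clca3a2 came to -0.14 in pair 1, -0.06 in pair 2 and 0.74 in pair 3. In pair 3 the 2 ratios thus differed by many times the technical SD of either. The sequences of the 2 probes were not in the files used here, and hybridization of one transcript to the probe of the other was not tested.

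**Figure D1:**
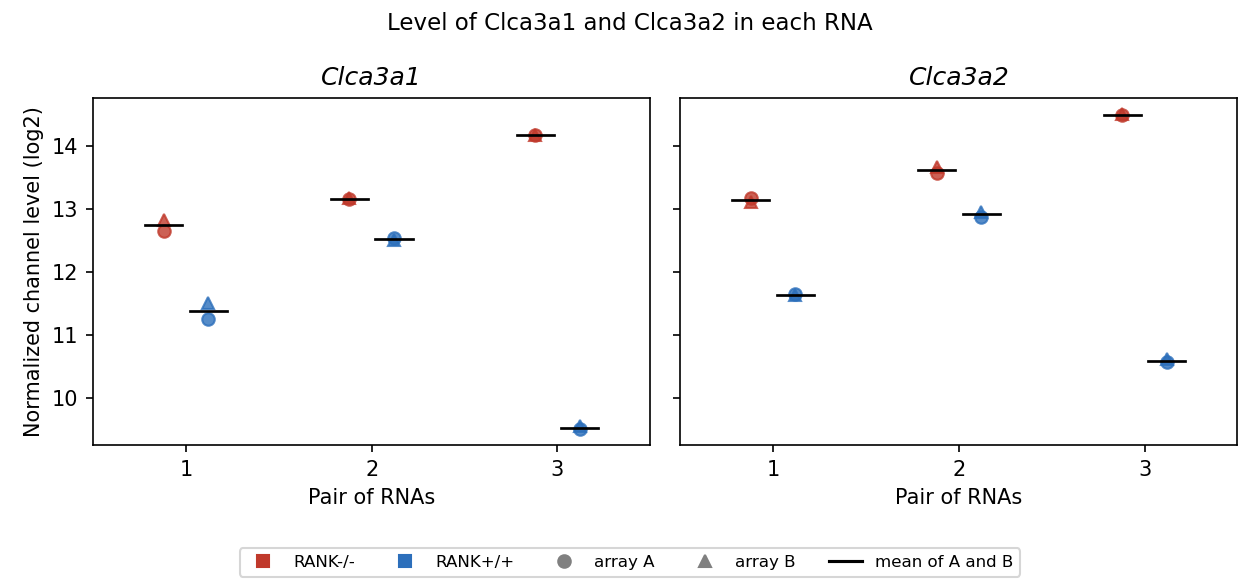
Normalized log2 channel level (vertical axis) of Clca3a1 and Clca3a2 in the 3 pairs of RNAs (horizontal axis), RANK-/- in red and RANK+/+ in blue, with circles for array A, triangles for array B and bars for their mean. In both genes every RANK-/- level lies above every RANK+/+ level, and the RANK+/+ levels range from 9.53 to 12.53 for Clca3a1 and from 10.59 to 12.92 for Clca3a2.

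The order of the 6 levels was the same in both genes, from RANK-/- of pairs 3, 2 and 1 down to RANK+/+ of pairs 2, 1 and 3. The groups did not overlap. The smallest gap was at the border between them, 0.22 for Clca3a1 and 0.22 for Clca3a2 between RANK-/- of pair 1 and RANK+/+ of pair 2, which were measured on different arrays. For Clca3a1, arrays A and B of the RANK-/- RNA of pair 1 lay at 12.66 and 12.83, and those of the RANK+/+ RNA of pair 2 at 12.54 and 12.51. The gap exceeded the spread between arrays A and B of these 2 RNAs. For Clca3a1 it did not exceed that of the RANK+/+ RNA of pair 1 (11.26 and 11.50). The 2 levels at the border did not differ beyond the SD between RNAs of either genotype. Across all 22503 genes tested, 824 (3.66%) had every RANK-/- level above every RANK+/+ level, and 850 (3.78%) had every one below. Clca3a1 and Clca3a2 were chosen on this contrast, so nothing is read from their being among them.

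The levels of both genes also varied among RNAs of one genotype. The SD of the RANK+/+ levels was 1.51 for Clca3a1 and 1.17 for Clca3a2, against a median of 0.217 over all genes tested, and 0.622% and 1.58% of genes had an SD as large. The SD of the RANK-/- levels was 0.74 and 0.69 (median 0.216), reached by 4.08% and 4.98% of genes. RANK+/+ levels spanned 3.00 log2 units for Clca3a1 and 2.33 for Clca3a2, while RANK-/- levels spanned 1.44 and 1.36. The wider spread thus lay in the RANK+/+ RNAs, and 3 RNAs per genotype do not allow a firm estimate of it. Both genes were chosen on ratios of these same levels, so nothing is read from these shares or from the wider spread.

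Without pair 3, the mean log2 ratio was 1.00 for Clca3a1 and 1.10 for Clca3a2. Without pair 2 it was 3.01 and 2.71, and without pair 1 it was 2.65 and 2.31. Leaving out pair 3 lowered both means, leaving out either other pair raised them, and the direction stayed. Among all genes tested, Clca3a1 ranked 348 of 22503 from the top in pair 1, 1443 in pair 2 and 3 in pair 3. Clca3a2 ranked 256, 1224 and 6. In pair 1, 823 genes (3.66%) were at least 2-fold higher in RANK-/-, against 551 (2.45%) in pair 2 and 1105 (4.91%) in pair 3. At least 2-fold lower were 639, 534 and 677 genes. Neither gene reached 2-fold in pair 2, so neither was among the 9 genes (0.04%) that were at least 2-fold higher in all 3 pairs, beside 11 (0.0489%) that were as much lower. Both were among the 2239 genes (9.95%) whose ratio was above 0 in all 3, while 2172 (9.65%) were below 0 in all 3.

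Clca3a1 and Clca3a2 were drawn from the genes called by a rank product, which orders genes by their ranks in the 3 pairs. It called 10 genes higher in RANK-/- (0.0444% of those tested) and 7 lower (0.0311%), and Clca3a1 stood at place 6 and Clca3a2 at place 8 of the higher order. Without pair 1, 2 or 3 it called 2, 17 or 0 genes higher, and both Clca genes were called without pair 2 but not without pair 1 or pair 3. Next to them were Slc2a6 at place 5 (mean log2 ratio 1.94), which encodes a glucose transporter family protein, Comp at place 7 (1.93), which encodes a cartilage matrix protein, and Cd74 at place 9 (1.93), the invariant chain of MHC class II. The first gene outside the threshold was H2-Aa (1.83), an MHC class II chain. limma, a linear model with moderated variances, was fitted on the 3 pair ratios over all genes. It called no gene in either direction (0 of 22503, 0%) after Benjamini-Hochberg adjustment. The smallest adjusted p over all genes was 0.9995, so this value sets no gene or list apart from another. Before adjustment, 647 of 22503 genes had a limma p under 0.05, a smaller share than the 0.05 reached if no gene differed.

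Clca1 is the goblet cell gene once known as gob-5, whose secreted protein is linked to mucus production. Of the other Clca genes with a probe (5), it was the one with signal enough to be tested. Its log2 ratio was -3.70 in pair 1, -2.81 in pair 2 and 0.95 in pair 3. Its RANK-/- log2 levels were 7.92, 7.16 and 7.48, and its RANK+/+ levels were 11.62, 9.97 and 6.53. The groups overlapped, through pair 3 alone, and the RANK+/+ levels spanned 5.09 log2 units against 0.76 in RANK-/-. In pair 3 the RANK+/+ signal of Clca1 was dim, at 1.88 and 1.52 times the local background on arrays A and B. Its ratio in that pair ran from 0.72 to 1.84 over 7 alternative ways of processing. The mean ratio was -1.85 ± 2.47 (SD, n = 3 pairs), and Clca1 did not pass limma (adjusted p = 1.00, Benjamini-Hochberg). As for Clca3a1 and Clca3a2, its lowest RANK+/+ level was that of pair 3.

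The remaining family members gave little or no signal. Clca3b, which shares the promoter run with Clca3a2, had spot signals of 0.871 to 1.07 times the local background over all 12 channel readings and passed the background call on 0 of 6 arrays in either genotype. Clca4a and Clca4b, a pair of intestinal family genes, were likewise well above background on 0 arrays. Clca2, an epithelial family gene that encodes a protein anchored in the membrane, passed the background call on 1 array in RANK-/- and on 2 in RANK+/+, both of pair 1. These 4 genes were not tested. Clca4c-ps, a pseudogene of the cluster, had no probe by this match.

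**Figure D2:**
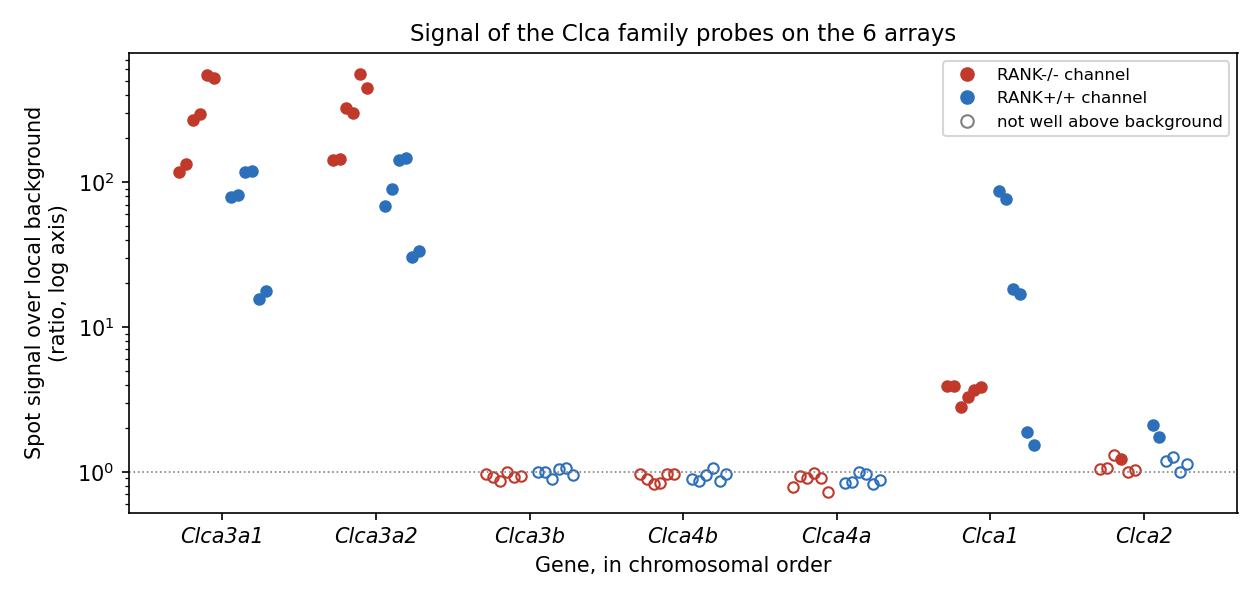
Raw spot signal over local background (vertical log axis) of the 7 Clca probes (horizontal axis, in chromosomal order) on 6 arrays, RANK-/- channels in red and RANK+/+ channels in blue, each ordered by pair, with open circles for readings not well above background. The signals of Clca3a1, Clca3a2 and Clca1 are well above background on all 6 arrays in both channels, and those of Clca3b, Clca4b and Clca4a lie near 1.

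The genes that flank the cluster had mean log2 ratios near 0 (0.08 to 0.18). In pair 2, where Clca3a1 and Clca3a2 had 0.64 and 0.70, the highest flanking gene, Odf2l, had 0.50. On the Clca3a1 side, Sh3glb1, which encodes an endophilin of the autophagy machinery, had log2 ratios of -0.26, 0.34 and 0.17. On the Clca2 side, Odf2l had -0.02, 0.50 and 0.06, and Col24a1, a fibrillar collagen gene, had 0.05, -0.04 and 0.29. Since limma gave every gene tested an adjusted p of 0.9995 or more, it does not set these genes apart. Rpl9-ps8, Gm9419 and Gm40163 were not matched to a probe.

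The levels of Clca3a1 and Clca3a2 ran closely together. Over the 6 RNA levels, the Pearson correlation of Clca3a1 with Clca3a2 was 0.991, which was place 3 for Clca3a1 and place 4 for Clca3a2 among all genes tested. The named genes of highest correlation with Clca3a1 were Amdhd2 (0.993), an enzyme of amino sugar breakdown, Ldb2 (0.988), a LIM domain binding cofactor, and C4b (0.987), complement component 4B. Ldb2 was also at place 3 for Clca3a2 (0.992). The other 4 entries in the 2 lists of 5 were unnamed transcripts. These values describe 6 levels on shared arrays, chosen from all genes, and carry no test.

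The size of the change differed among them. C4b had log2 ratios of 0.87, 0.77 and 3.43, with a mean of 1.69. Amdhd2 had 0.24, 0.16 and 1.38 (mean 0.59), and Ldb2 had 0.21, 0.15 and 0.87 (mean 0.41). In all of them pair 3 was highest and pair 2 lowest, as in Clca3a1 and Clca3a2. They were picked for their correlation over the same levels, so nothing is read from this shared order.

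**Figure D3:**
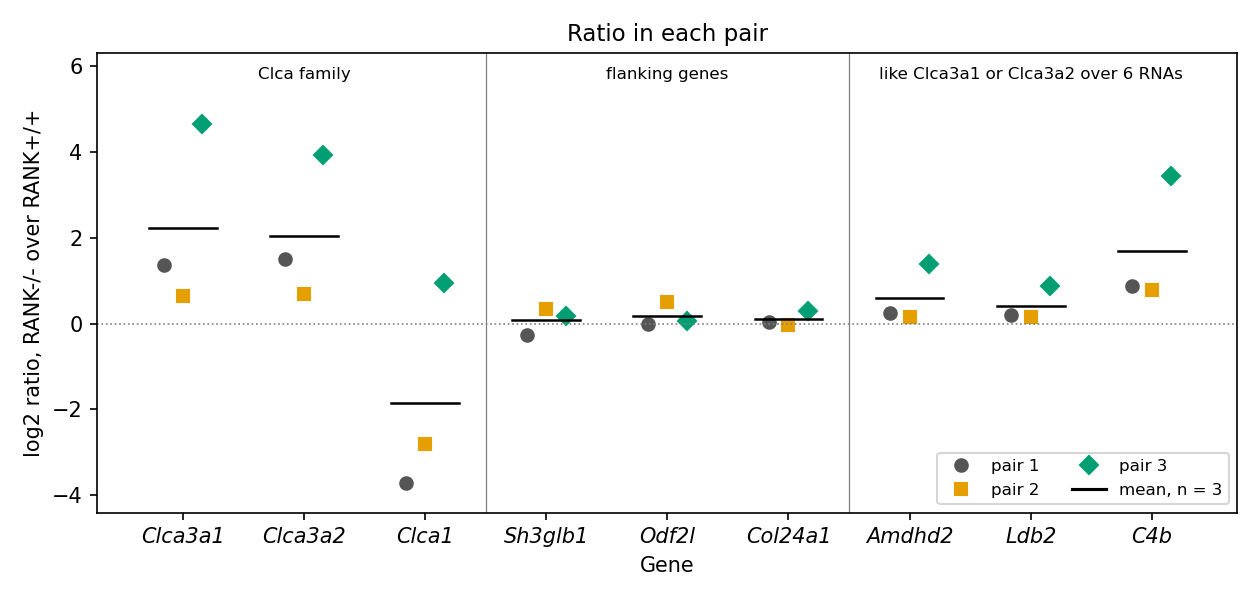
Log2 ratio of RANK-/- over RANK+/+ (vertical axis) in pairs 1, 2 and 3 (gray circles, orange squares, green diamonds) with the mean as a bar, for the 3 tested Clca genes, the 3 flanking genes with a probe and the 3 other named genes most like Clca3a1 or Clca3a2 (horizontal axis). Clca3a1 and Clca3a2 are above 0 in every pair, Clca1 is below 0 in pairs 1 and 2, and the flanking genes stay between -0.26 and 0.50.

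Chloride channel genes were examined because CLCA proteins act on such conductances. Of 37 listed genes 28 were tested, and the median of their log2 ratios by pair was -0.01, -0.22 and 0.10, beside 0.02, -0.01 and 0.00 over all genes tested. None passed limma, 0 were above 0 in all 3 pairs and 3 were below 0 in all 3, beside 9.95% and 9.65% of all genes tested. Ano1, the calcium-activated chloride channel that CLCA1 is known to stabilize, had log2 ratios of 0.04, -0.03 and 0.09. The highest mean was that of Lrrc8a (0.35 ± 0.55), the required subunit of volume-regulated anion channels, and the lowest was that of Ttyh1 (-1.50 ± 1.03), a tweety family gene with ratios of -0.33, -1.94 and -2.25 (SD, n = 3 pairs, adjusted p = 1.00 by limma for both). Of 6 tested genes for integrins and the kinase described with CLCA proteins, none passed limma. The highest mean was that of Ptk2 (0.49), focal adhesion kinase, and the lowest was that of Itgb4 (-0.51), the β4 integrin, with ratios of -2.03, 0.68 and -0.18.

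Genes of mammary involution and lactation were examined because of the known setting of Clca3a2. The 17 involution genes had median log2 ratios of 0.74, -0.32 and 1.28, and none passed limma. Stat3, the transcription factor that drives involution, had 0.95, 0.35 and 1.23, and Osmr, a receptor chain upstream of it, had 0.75, 0.17 and 2.03, and these were the 2 of 17 involution genes above 0 in all 3 pairs, beside 9.95% of all genes tested. Mmp3, a matrix protease, had the highest mean (1.38 ± 2.20, SD, n = 3 pairs) and Lif, a Stat3-activating cytokine, the lowest (-0.07 ± 0.95). The 11 milk genes had median ratios of -0.54, -0.87 and 1.65. Wap, the whey acidic protein gene, had the highest mean (2.76, from 3.75, 0.71 and 3.83), and Glycam1, a milk mucin gene, the lowest (-1.62, from -2.62, -2.46 and 0.22). Both had an adjusted p of 1.00 by limma. Wap was called higher by the rank product, at place 2.

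Markers of cell types were set beside these values to describe which cells the sorted fraction held, and their summed levels cover the tested genes of each list. Of the lymphatic endothelium list, 7 of 8 genes had a probe and 2 were tested, Nrp2 (-0.87, 1.97 and 1.18) and Pdpn (-0.43, 0.72 and 0.59), both also found on other cells. The defining lymphatic genes were at or near background. Prox1 passed the background call on 2 of 6 arrays in each genotype, Lyve1 on 1 in RANK-/- and 0 in RANK+/+, and Flt4 on 1 in each, while Reln and Mmrn1 were on 0. The summed level of the list was 4230 to 6209 in RANK-/- and 3065 to 5868 in RANK+/+, in normalized intensity. The 8 blood endothelium genes had medians of -0.01, -0.18 and 0.53 and summed levels of 5158 to 6305 and 4629 to 6840. Their highest mean was that of Tek (0.21) and their lowest that of Egfl7 (-0.22).

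The fibroblast list had its highest median in pair 3, as had every other list here except the basal and lymphatic ones. Its 12 tested genes had medians of 0.08, 0.66 and 1.74, with 4 above 0 in all 3 pairs (Col1a1, Col1a2, Pdgfra and Dpt) and 0 below, beside 9.95% and 9.65% of all genes tested, and none passed limma. Its summed level was 161800 to 256700 in RANK-/- and 56680 to 173600 in RANK+/+, and the log2 ratio of the sums was 0.14, 0.85 and 2.18. The highest mean was that of Pi16 (1.41 ± 1.46), and the lowest was that of Pdgfrb (0.44 ± 1.34). Clca3a1 and Clca3a2 were also highest in pair 3, and were higher in pair 1 than in pair 2. The fibroblast median was lower in pair 1 than in pair 2, and so were Col1a2, Col3a1, Dcn, Lum, Pdgfra, Dpt, Pi16 and Cd34. The rest of the list, Col1a1 (0.68 and 0.30), Pdgfrb (1.60 and -1.03), Thy1 (0.56 and -0.29) and Dpp4 (0.58 and -0.23), were higher in pair 1. The part of these cells in the ratios of Clca3a1 and Clca3a2 was not tested.

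The 8 luminal genes had medians of 0.36, -0.61 and 0.40, with summed levels of 115900 to 414800 in RANK-/- and 154600 to 251800 in RANK+/+ and log2 ratios of the sums of 0.26, -1.12 and 1.42. Elf5, a regulator of alveolar luminal cells, had the highest mean (0.61), and Krt19 the lowest (-1.71). The 8 basal genes had medians of 0.17, -0.06 and 0.03 and summed levels of 24360 to 27450 and 28430 to 43400. Oxtr had the highest mean (0.89) and Krt5 the lowest (-1.07). The leukocyte list had 10 of 14 genes tested, with medians of -0.46, 0.09 and 0.13 and summed levels of 4486 to 6244 in RANK-/- and 4105 to 28690 in RANK+/+. The 28690 was that of pair 1 and came mostly from S100a8, whose log2 level there was 14.29 in RANK+/+ and 10.29 in RANK-/-. Ptprc, which encodes CD45 itself, had log2 levels of 6.45, 6.45 and 6.22 in RANK-/- and 7.38, 6.35 and 6.08 in RANK+/+, and passed the background call on 5 and 4 arrays. Ms4a1 and Ncr1 were well above background on 0 arrays and Cd8a on 2 arrays in RANK+/+ alone. Other leukocyte genes were well above background on 6 of 6 arrays in both genotypes, among them the T cell genes Cd3e (log2 levels of 9.31 to 9.51) and Cd4 (9.43 to 9.63) and the macrophage genes Csf1r (9.15 to 10.67) and Cd68 (8.84 to 9.85). The levels were lower for the macrophage genes Adgre1 (6.12 to 6.87) and Lyz2 (6.29 to 6.99), and for Itgax (6.09 to 8.30). Adgre1 and Itgax passed the background call on 6 arrays in RANK-/- and 4 in RANK+/+. The list thus does not settle which leukocytes remained. The lowest mean was that of S100a9, a neutrophil gene, with ratios of -4.12, -0.04 and -0.25, and the highest was that of Lyz2 (0.09). No gene of any marker list passed limma. The part of luminal, basal or leukocyte RNA in the ratios of Clca3a1 and Clca3a2 was not tested.

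**Figure D4:**
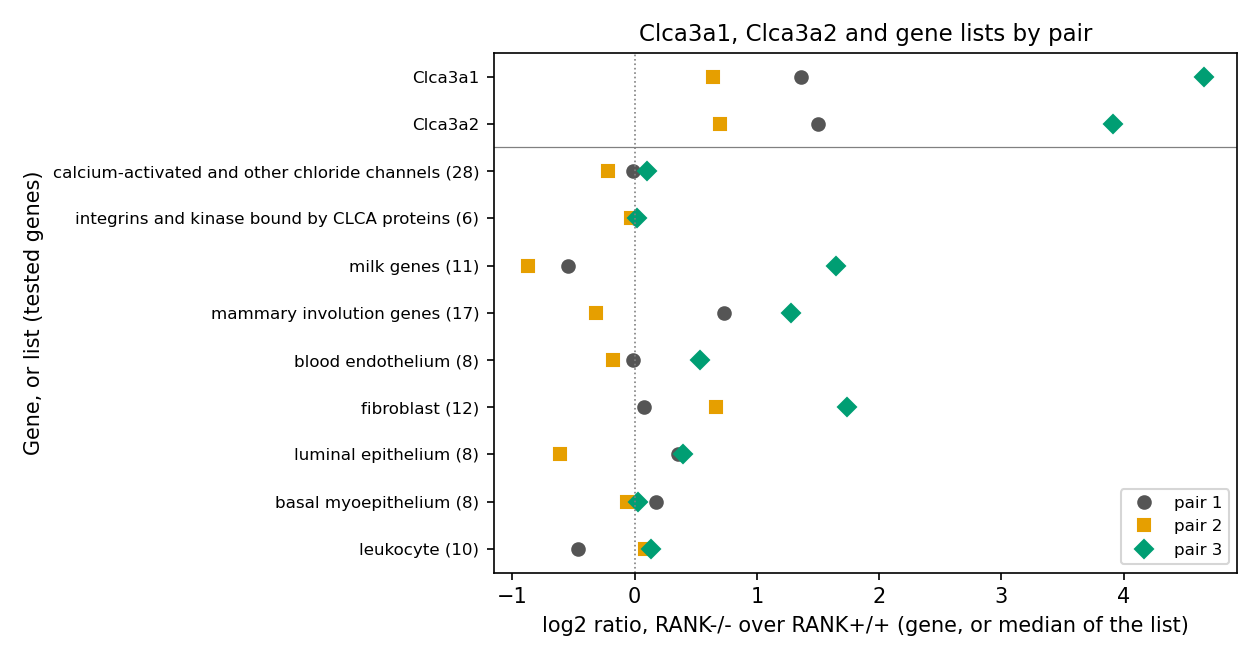
Log2 ratio of RANK-/- over RANK+/+ (horizontal axis) in pairs 1, 2 and 3 (gray circles, orange squares, green diamonds) for Clca3a1, Clca3a2 and the median of each list, with the number of tested genes in brackets (vertical axis). All lists shown except the basal one have their highest median in pair 3. It is largest for involution, milk and fibroblast genes (1.28, 1.65 and 1.74), below the 4.65 and 3.92 of Clca3a1 and Clca3a2.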

How the data were processed

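Sorted CD45- cells of RANK-/- and RANK+/+ MMTV-PyMT tumor transplants were hybridized to 6 two-color SurePrint G3 Mouse arrays, all on 1 slide, so slide could not be a batch term. Arrays were extracted by the authors with Agilent Feature Extraction 10.7.3.1 (per the submitters' processing notes and file headers). The deposited scanner tables hold median spot and background intensity per channel, unnormalized, and processed intensity. The deposited series table holds log2 ratios normalized by the authors. Processed intensity and series table served as alternatives. The study's methods describe dye swaps, but the labels give both arrays of a pair 1 dye arrangement.

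Median intensities were background-corrected (normexp, offset 50), normalized by loess and Aquantile (limma 3.58.1, R 4.3.3), averaged per probe and turned to RANK-/- over RANK+/+. Arrays A and B were averaged (n = 3). Of all 55681 gene probes, 28026 were matched to a RefSeq symbol. Probes called well above background in one genotype's channel, on arrays A and B of 2 or more pairs, were kept (30230, 54.3%). The brightest probe stood for a gene. Of the 22503 genes then tested, 14673 had a RefSeq symbol and the rest were unnamed transcripts. limma (two-sided) and a rank product (500 draws, threshold 0.05) covered 22503 genes. Both were tested on simulated ratios with the same SD for every gene and the same effect in every pair. The data differ from that setting, so the simulation does not bear on genes as variable as Clca3a1 and Clca3a2. An exact sign-flip test on 3 pairs cannot go below 0.25. The number of arrays limits precision. Same-numbered RNAs did not deviate together (r of -0.03, -0.22 and -0.04). Promoters were searched with Python 3.11.15 and Biopython 1.88, and plots used matplotlib 3.10.9. Named genes were the members, every Clca probe, 3 neighbors on each side of the cluster, Tnfrsf11a, the 5 genes most like each member, and the highest and lowest gene of each list. Members and lists were chosen with earlier results of these data known.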

Additional observations from a re-analysis of the deposited data

How the results depend on the processing

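The mean log2 ratio stayed above 0 for Clca3a1 and Clca3a2 under all 18 alternatives, 15 of them not leaving out a pair. Under those 15 it was 1.97 to 2.24 for Clca3a1 and 1.76 to 2.05 for Clca3a2, and with 1 pair left out it was 1.00 to 3.01 and 1.10 to 2.71. Median centring gave the lowest values, and it moved the median of all genes to -0.14. Relative to that median the means were 2.10 and 1.89. The pair 2 ratio was then 0.28 and 0.30. With no replicate block the means were 2.22 and 2.04 and 0 genes passed limma, with 828 below 0.05 before adjustment, and the pairing changed no call. The limma count was 298 with the 6 arrays as 6 replicates, which treats technical arrays as independent, and 0 otherwise. The rank product called 17 genes, 39 without the filter, 733 with 6 arrays as replicates, and 2 to 22 with 1 pair left out (4 without pair 1, 22 without pair 2 and 2 without pair 3). Of its calls, 10 of 17 were higher in RANK-/-, against 4 of 17 with offset 0, 5 of 18 with offset 16, 4 of 21 with processed signals and 6 of 24 in the series table. The rank product called Clca3a1 in 7 and Clca3a2 in 9 of 13 alternatives that kept all pairs, and these include the 6 arrays as 6 replicates. Neither gene was called with offset 0, offset 16, processed signals or the series table. Clca3a1 was also not called with median centring or with both channels well above background on all 6 arrays. Both were called without pair 2 but neither without pair 1 or 3. Clca1 stayed below 0, from -3.25 to -0.93. The slide block was not run, since all arrays lay on 1 slide. The cause of these shifts was not tested.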
